A study of Mus musculus with 9 samples.

Results

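Tenascin C, thrombospondins, SPARC, periostin, fibronectin, vitronectin, fibrillin, osteopontin and decorin are secreted glycoproteins of the extracellular matrix. Their genes were read across mouse embryonic stem cells with and without β-catenin. The list held 10 genes, picked by symbol, and a gene with several features was to be represented by the feature with the highest mean over all arrays. Of the 10 genes, 8 had a feature with a single gene symbol, and each of the 8 had only 1 such feature, so that the mean level decided nothing. They were Tnc, Thbs1, Thbs2, Sparc, Postn, Fn1, Vtn and Dcn, among 19938 genes in all. Spp1 and Fbn1 were not analysed here. The list was drawn up with earlier results of these data known, in which Tnc, Thbs1 and Fn1 had already been named against the control cells. For those 3 genes the differences from control cells are therefore given as descriptions with no test, and any count against control cells that includes them is a description too.

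Matricellular proteins are matrix proteins that act mainly as modulators of adhesion and signalling and not as load-bearing fibres. They bind integrins, syndecans, proteases and growth factors, are scarce in most resting adult tissues, and are made in quantity during development, wound repair and by activated fibroblasts. Tenascin C, both thrombospondins, SPARC and periostin belong to this class in the usual sense. Fibronectin and vitronectin are adhesive glycoproteins bound by integrins, and decorin is a small leucine-rich proteoglycan, so the list is wider than the class.

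The study compared 3 groups with 3 arrays each, described in the labels as biological replicates, all on the mixed background S129S6-C57BL/6. Flox cells, the control, had 1 β-catenin allele deleted and a floxed second allele, so that all groups lacked at least 1 allele. Null cells carried neither allele. The null Eα group lacked β-catenin in the same way and, by stable transfection, made an E-cadherin-α-catenin fusion protein, in which the cadherin is joined directly to α-catenin. All were grown on gelatin, with leukaemia inhibitory factor at 1000 U/ml and 15% serum, and no feeder layer is named. Whether a group was 1 line or several is not given, so p-values measure the spread between these cultures, and genotype cannot be told apart from line.

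Values are log2 RMA signals, a background-corrected summary per gene on which a difference of 1 is a 2-fold change. Array medians lay between 5.95 and 6.06. Arrays correlated at 0.995 to 0.997 within flox, 0.991 to 0.992 within null and 0.986 to 0.990 within null Eα, across features, which are not independent replicates. The signal of Ctnnb1, the deleted gene, averaged 11.16 in flox, 10.51 in null and 10.23 in null Eα cells. Its feature covers the whole transcript, so probes outside the deleted part do not check the deletion. The mean of 15 stem cell markers lay at 10.6 on flox, 8.14 to 8.37 on null and 10.2 to 10.4 on null Eα arrays. Detection calls were not used here, and 1194 olfactory and vomeronasal receptor genes served as a reference for dim signal, chosen after the data were seen. Their 95th percentile lay at 4.96 to 5.07 on flox, 5.19 to 5.25 on null and 5.31 to 5.43 on null Eα arrays. These dim features shifted between groups, with a median difference of 0.12 for null and 0.22 for null Eα against flox.

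Among the genes that were higher in null cells, Tnc, Thbs2 and Postn had a promoter in a RefSeq table of the mouse build GRCm38.p6, and the 250 bases before their most upstream listed start are shown because all 3 were at least 2-fold higher. Sparc and Vtn had entries as well, and Thbs1, Fn1 and Dcn had none. Capitals mark every match, on either strand, to 7 motifs: TEAD (CATTCC), TCF/LEF (CTTTGAT), AP-1 (TGANTCA), SMAD (CAGAC), the TATA box (TATAAA), a Snail-type E-box (CACCTG) and the GC box (GGGCGG). Tnc lies at chr4:64047016-64047265 on the minus strand, Thbs2 at chr17:14694263-14694512 on the minus strand and Postn at chr3:54359017-54359266 on the plus strand.
Tnc: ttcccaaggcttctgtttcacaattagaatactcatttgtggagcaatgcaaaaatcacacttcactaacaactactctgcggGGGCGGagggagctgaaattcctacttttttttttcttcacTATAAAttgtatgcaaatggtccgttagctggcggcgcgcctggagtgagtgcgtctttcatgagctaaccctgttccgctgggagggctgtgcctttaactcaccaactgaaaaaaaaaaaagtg
Thbs2: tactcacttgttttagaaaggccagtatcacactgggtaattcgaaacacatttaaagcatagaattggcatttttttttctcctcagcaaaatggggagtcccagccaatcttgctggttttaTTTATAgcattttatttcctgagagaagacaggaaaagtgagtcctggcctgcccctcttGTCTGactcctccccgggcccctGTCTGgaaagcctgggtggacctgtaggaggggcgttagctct
Postn: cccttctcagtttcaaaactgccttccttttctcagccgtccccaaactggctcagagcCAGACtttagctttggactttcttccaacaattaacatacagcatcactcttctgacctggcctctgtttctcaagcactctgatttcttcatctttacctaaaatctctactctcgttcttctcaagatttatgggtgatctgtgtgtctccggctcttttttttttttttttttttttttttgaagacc

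Each of the printed windows held a match to a motif, and no motif was found in all 3 of these windows. Tnc held 1 GC box, found in 32.7% of 32817 promoter windows of this length, and 1 TATAAA, found in 12.4%, which began 126 bases before the start. Thbs2 held the TATA letters on the opposite strand and 2 SMAD matches, and Postn 1 SMAD match, a motif found in 42.2% of windows. A later listed start of Tnc had a SMAD match 70 bases before it, and a later one of Postn had TATAAA 26 bases before it, so that over all listed starts the SMAD and the TATA letters occurred in each of the 3 genes. None of the printed windows held the TEAD (12.6% of windows), TCF/LEF (3.21%), AP-1 (6.75%) or E-box letters (17.2%). A match is only a run of letters, and a missing match says nothing of a factor.

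Loss of the second β-catenin allele was accompanied by large differences in 5 of the 8 genes. Tnc, Thbs1, Postn, Dcn and Thbs2 were each at least 2-fold higher in null than in flox cells, by 3.23 to 6.45 log2 units. Fn1, bright in flox cells, read slightly lower in null cells, Sparc was not called, and Vtn stayed dim. A gene was called where limma's p, adjusted by Benjamini-Hochberg over all genes, lay under 0.05. Of the 5 genes that were tested here, 4 were called higher (Thbs2, Postn, Dcn and Vtn) and 0 lower. Of all genes, 55.2% were called, 26.5% higher and 28.7% lower. With Tnc, Thbs1 and Fn1 the fit called 6 of the 8 higher and 1 lower, from which nothing is read. The null and flox arrays did not overlap for 6 genes that were higher and 2 that were lower, against 35.5% and 31.9% of all genes. The fit called 5 of the 8 higher by at least 2-fold, against 5.03% of all genes. It called 0 of the 8 lower by at least 2-fold, against 10.2%. The median difference was 3.76 for the 8 genes and 0.06 for all genes. Since the list was drawn up with this comparison known, all these counts are a description.

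Tnc encodes tenascin C, a large hexameric protein that loosens the attachment of cells to fibronectin. It measured 4.50, 4.33 and 4.29 on the flox arrays, 10.45, 11.15 and 10.88 on the null arrays, and 10.46, 10.03 and 9.85 on the null Eα arrays. Flox cells lay at the dim end and both groups without β-catenin far above them, with no overlap. The difference from flox was 6.45 ± 0.19 (limma standard error, n = 3 per group) in null and 5.74 ± 0.19 in null Eα cells. Since the flox values lay under the 95th percentile of the olfactory reference, both differences are lower bounds. Here and below, a lower bound means only that a dim flox signal can make a difference too small. It does not cover the spread between arrays.

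Thbs1 encodes thrombospondin 1, which activates latent TGF-β and inhibits the growth of blood vessels. Its values were 6.37, 6.51 and 6.34 in flox, 12.23, 12.27 and 12.45 in null, and 11.85, 11.53 and 11.67 in null Eα cells. The 3 groups were fully separate, with null highest and flox lowest. Null cells stood 5.91 ± 0.10 above flox, and null Eα cells 5.28 ± 0.10. Unlike Tnc, Thbs1 lay above the dim reference on all 9 arrays.

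Thbs2 encodes thrombospondin 2, a close relative of thrombospondin 1 that guides the assembly of collagen fibrils. It read 6.31, 6.22 and 6.34 in flox, 9.10, 10.61 and 8.84 in null, and 8.74, 8.33 and 8.31 in null Eα cells. Both groups without β-catenin stood above flox, and the null arrays were spread widely. The rise was 3.23 ± 0.37 in null (limma adjusted p = 2.89e-05) and 2.17 ± 0.37 in null Eα cells (adjusted p = 5.43e-04), or 9.36-fold and 4.49-fold.

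Postn encodes periostin, a partner of collagen and tenascin C in matrix assembly. Its flox values were 4.38, 4.33 and 4.07, its null values 8.19, 9.10 and 8.35, and its null Eα values 6.81, 6.40 and 7.10. The groups were again fully separate, and null Eα cells lay between the others. Postn rose by 4.29 ± 0.24 in null (limma adjusted p = 1.53e-07) while the rise in null Eα cells was 2.51 ± 0.24 (adjusted p = 8.92e-06). Its flox values lay under the dim reference, so these are lower bounds too.

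Dcn encodes decorin, which binds collagen fibrils and holds back TGF-β. It measured 4.17, 4.30 and 4.13 in flox, 8.08, 10.45 and 8.54 in null, and 8.25, 7.80 and 7.43 in null Eα cells. All flox arrays were dim, while the null and null Eα arrays overlapped each other. The rise was 4.82 ± 0.49 in null (limma adjusted p = 1.20e-05) and 3.62 ± 0.49 in null Eα cells (adjusted p = 1.14e-04). Both are lower bounds only as to the dim flox signal, since without null replicate 2 the rise in null cells was 4.11. The SD of the 3 null arrays was 1.25, against 0.09 in flox and 0.41 in null Eα cells.

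**Figure D1:**
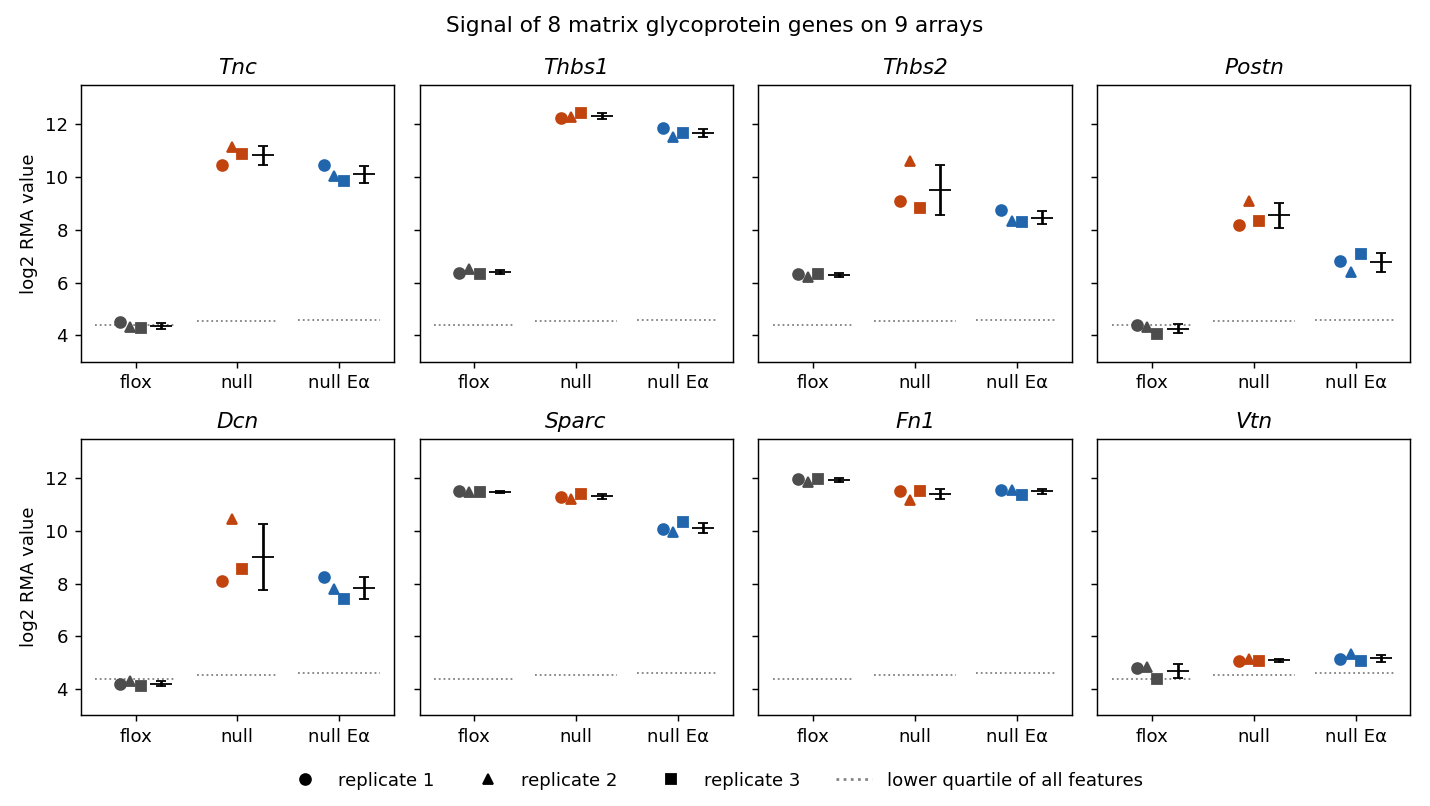
Log2 RMA value (vertical axis) of each of the 8 measured genes on every array, by group, with the replicate shown by the marker, the mean ± SD of 3 arrays beside it, and the mean lower quartile of all features as a dotted line. Tnc, Postn and Dcn start near the lower quartile in flox cells and reach group means of 8.55 to 10.83 in null cells, while Sparc and Fn1 start between 11.45 and 11.97.

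The wide spread of Dcn and Thbs2 came from null replicate 2. This array held the highest null value of 5 of the 8 genes, Dcn, Thbs2, Postn, Tnc and Vtn, and of 12 of 17 fibroblast markers. Among the markers, Lum, a relative of decorin, read 6.67 there and 3.59 and 3.57 on the other null arrays, and Dpt, a small matrix protein, read 5.19 against 4.18 and 4.25. The markers did not all lean that way, since Acta2 at 11.60, Col1a1 at 11.03, Col1a2 at 10.95 and Col5a1 at 8.09 had their lowest null value on this array. Without null replicate 2, the rise in null cells was 4.11 for Dcn, 2.68 for Thbs2 and 4.01 for Postn, each still called, and the difference of Tnc was 6.29. Fn1 went the other way, with 11.17 on this array and 11.51 on each of the others. Sparc was lowest on this array as well, at 11.22 against 11.30 and 11.41. The part of this array's marker levels in its Dcn and Thbs2 values was not tested.

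**Figure D2:**
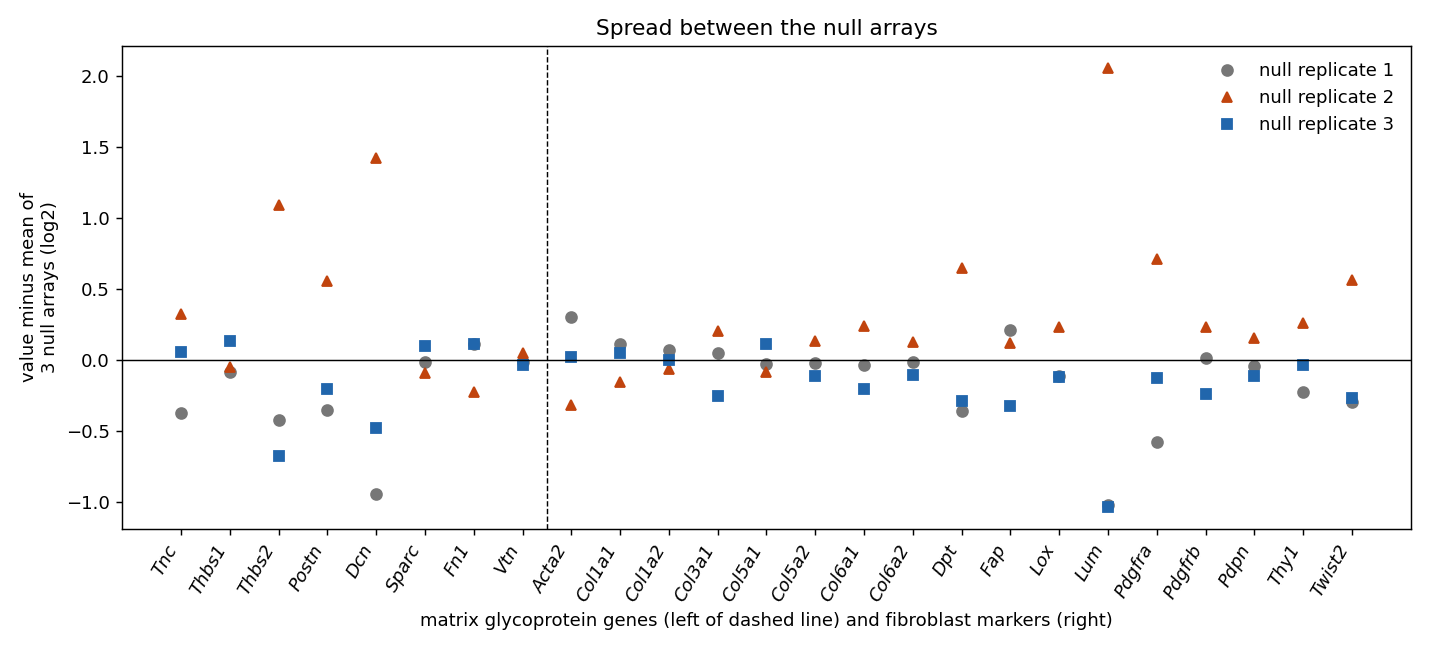
Value on each null array minus the mean of the 3 null arrays (vertical axis, log2), for the 8 genes on the left of the dashed line and 17 fibroblast markers on the right, with the replicate shown by colour and marker. Replicate 2 lies highest for Dcn, Thbs2, Postn and Lum, among others, and lowest for Fn1, Sparc, Acta2, Col1a1, Col1a2 and Col5a1.

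The genes that were bright in flox cells behaved differently from the 5 above. Fn1 encodes fibronectin, the main adhesive protein of the early embryonic matrix. Its values were 11.97, 11.85 and 11.97 in flox, 11.51, 11.17 and 11.51 in null, and 11.56, 11.54 and 11.38 in null Eα cells. Every array without β-catenin lay below every flox array, by -0.53 ± 0.10 on average in null and -0.43 ± 0.10 in null Eα cells. These differences are well under 2-fold.

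Sparc encodes a collagen-binding protein abundant in parietal endoderm and in cultured cells. It read 11.52, 11.45 and 11.47 in flox, 11.30, 11.22 and 11.41 in null, and 10.06, 9.95 and 10.32 in null Eα cells. Null arrays lay just under flox arrays, with a difference of -0.17 ± 0.10 that was not called (limma adjusted p = 0.170, 95% interval -0.39 to 0.05). In null Eα cells Sparc fell by 1.37 ± 0.10 (adjusted p = 1.43e-06), a 2.59-fold lower signal. Sparc lies on chromosome 11, where 876 brighter genes shifted by a median of -0.62 in null Eα cells, against -0.29 for all 9969 brighter genes. After each chromosome was centred on its brighter genes, the fall of Sparc in null Eα cells was -0.75 (adjusted p = 7.96e-05).

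Vtn encodes vitronectin, a serum protein made mostly by liver and bound by αv integrins. It measured 4.80, 4.85 and 4.40 in flox, 5.07, 5.13 and 5.05 in null, and 5.12, 5.32 and 5.05 in null Eα cells, under the dim reference on all 9 arrays. It was called higher by 0.40 ± 0.12 in null (limma adjusted p = 0.0162) while null Eα cells stood 0.48 ± 0.12 higher (adjusted p = 0.00596). Of the 1194 olfactory and vomeronasal genes, 15.2% and 41.8% were called higher in the same comparisons. The Vtn calls were lost after quantile normalization, at 0.26 and 0.27, and the null call also without null replicate 2, at 0.38.

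Null Eα against flox cells shows what remains different from control when the fusion is present. Of the 5 tested genes 4 were called higher and 1, Sparc, lower, where 63.7% of all genes were called, 32.1% higher and 31.6% lower. With Tnc, Thbs1 and Fn1 the fit called 6 of the 8 higher and 2 lower, again only a description. For all 8 the arrays of these groups did not overlap, again 6 higher and 2 lower, against 35.9% and 33.6% of all genes. Called and at least 2-fold higher were 5 genes (2.22% of all genes), and called and at least 2-fold lower was Sparc (9.75% of all genes). The median difference was 2.34 for the 8 genes and 0.07 for all genes. This comparison shares its flox arrays with the one before, so their likeness is no further evidence.

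The direct comparison of null Eα with null cells asks what differs once the fusion is expressed. Of the 8 genes 5 were called lower, 0 higher, and Dcn, Fn1 and Vtn were not called (limma). Of all genes, 31.7% were called, 18.1% lower and 13.6% higher. The arrays did not overlap for 4 genes that were lower and 0 that were higher, against 21% and 22% of all genes. The median difference was -0.89 for the 8 genes and 0.05 for all genes. Called and at least 2-fold lower were 3 genes, Postn, Sparc and Thbs2, against 3.13% of all genes. Called and at least 2-fold higher were 0, against 1.7%. Dcn was 2.29-fold lower but not called. This comparison shares its null arrays with null against flox, where Tnc, Thbs1 and Fn1 had already been named. Null values that were high by chance would enlarge both the rise from flox and the fall here. These counts are therefore a description too.

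Postn fell by 1.78 ± 0.24 (limma adjusted p = 3.67e-04, 3.43-fold lower) and Sparc by 1.20 ± 0.10 (adjusted p = 2.03e-05, 2.30-fold lower), each with no overlap between groups. With each chromosome centred the Sparc difference was -0.77 and the Postn difference -1.55, both still called. Thbs1 fell by 0.63 ± 0.10 (adjusted p = 9.90e-04), and its groups did not overlap. Of the genes called here, Postn, Thbs1, Thbs2 and Tnc stood above flox in null cells, and Sparc had not been called there.

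The other differences were less firm. Thbs2 stood at -1.06 ± 0.37 (limma adjusted p = 0.0498), a call lost under 11 of 19 alternative settings, with adjusted p from 0.0205 to 0.132. Without null replicate 2 its difference was -0.51, and the call was kept. Tnc stood at -0.71 ± 0.19 (adjusted p = 0.0155), with null Eα replicate 1 (10.46) just above null replicate 1 (10.45). That call was lost without null replicate 2 (-0.55), null replicate 3 (-0.69) or null Eα replicate 2 (-0.67). Dcn differed by -1.20 ± 0.49 (adjusted p = 0.0862, 95% interval -2.28 to -0.12). Without null replicate 1 it was called (-1.67, adjusted p = 0.0265), and without null replicate 2 it was -0.49 and not called. Fn1 differed by 0.09 ± 0.10 (95% interval -0.14 to 0.32) and Vtn by 0.08 ± 0.12 (-0.19 to 0.35).

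**Figure D3:**
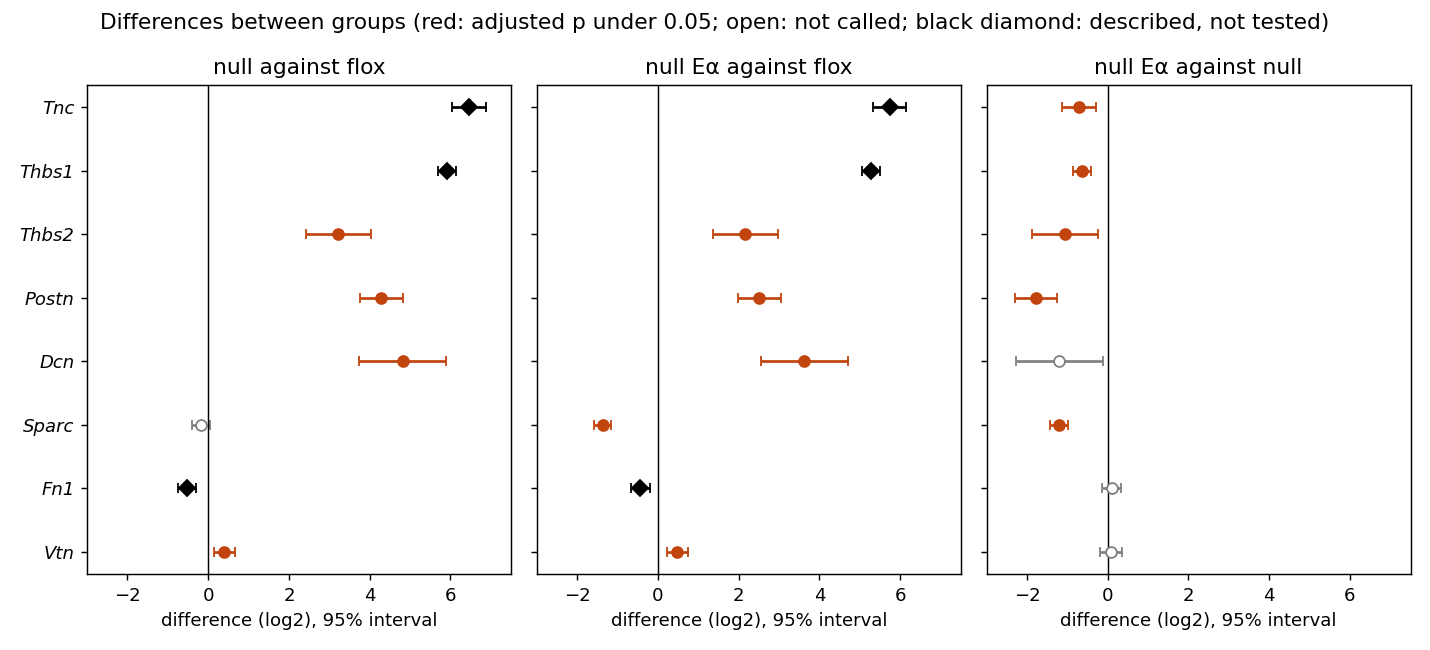
Difference between groups in log2 units (horizontal axis) for each of the 8 genes, in 3 panels, 1 per comparison, with limma's 95% interval; red points were called at an adjusted p under 0.05, open points were not, and black diamonds were described and not tested. Tnc lies furthest right against flox in both groups, at 6.45 and 5.74, and Postn furthest left in null Eα against null, at -1.78.

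The array signal comes from bulk RNA, so more cells of a type and more transcript per cell cannot be told apart. Fibroblast markers were higher where the 5 genes were. Of 17 markers 15 were called higher and 0 lower in null cells (26.5% and 28.7% of all genes), and 15 higher and 1 lower in null Eα cells (32.1% and 31.6%). Between null Eα and null cells, 8 of the 17 were called lower and 0 higher in null Eα cells. These were 47.1% and 0%, against 18.1% and 13.6% of all genes. The mean level of the markers lay at 5.67 to 5.83 on flox, 7.98 to 8.46 on null and 7.54 to 7.78 on null Eα arrays. The collagen I chain genes Col1a1 and Col1a2 averaged 11.19 and 11.02 in null cells, but Fap and Dpt, at 4.15 and 4.54, and Lum, at 4.61, had null means below the dim reference. Without null replicate 2, 16 of the 17 were called higher in null cells. The part of other cells in the rises was not tested.

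Markers of 2 further cell types that make members of the list were read as well. Of 16 parietal endoderm markers 10 were called higher and 2 lower in null cells. These were 62.5% and 12.5%, against 26.5% and 28.7% of all genes. Their mean level lay at 6.44 to 6.54 on flox and 7.20 to 7.33 on null arrays. The lists share some genes. Pdgfra (1.75) is also counted among the fibroblast markers and Plat (1.77) among the processing genes below, both called higher in null cells. Lum is both a fibroblast marker and 1 of the further matrix genes below. Of the parietal endoderm transcription factors Foxa2 rose (0.42), Gata4 fell (-0.27), and Gata6 (-0.06), Sox7 (0.16) and Sox17 (-0.05) were not called. Of its basement membrane genes Lamb1 (2.06), Col4a2 (1.68), Col4a1 (1.32) and Lamc1 (0.44) rose, Lama1 fell (-1.13) and Nid1 (-0.15) was not called. In null Eα cells, where Sparc was lower, 11 of these markers were called higher and 0 lower against flox. These were 68.8% and 0%, against 32.1% and 31.6% of all genes. Of 9 macrophage and blood markers 2 were called higher and 1 lower in null cells, or 22.2% and 11.1%. The share called higher was near the 26.5% of all genes. Mean levels lay at 4.98 to 5.04 on flox and 5.06 to 5.08 on null arrays.

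Other genes around the 8 were counted in lists. Of 53 further matricellular and matrix genes, 33 were called higher and 5 lower in null cells, or 62.3% and 9.43%, against 26.5% and 28.7% of all genes (median 0.41, against 0.06). Named by the size of the fitted difference were Bgn, the decorin-like proteoglycan biglycan (5.08), Fbln2, the elastic-fibre protein fibulin 2 (3.38), Ltbp2, a relative of the latent TGF-β binding proteins (2.77), and Ccn1, a matricellular ligand of integrins (2.31). The families of the members were singled out after their values were seen. Of the other thrombospondins Thbs3 rose by 0.82 and Thbs4 by 0.32, and Comp (0.13) was not called. All 3 other tenascin genes measured, Tnn (0.65), Tnxb (0.41) and Tnr (0.22), were called higher. Of the SPARC family Smoc2 (0.79), Spock3 (0.30) and Fstl1 (0.28) were called higher, Smoc1 fell by 1.85, and Sparcl1 (-0.14), Spock1 (0.11) and Spock2 (-0.09) were not called. The means of Tnr and Spock3 lay below the dim reference in both flox and null cells, and that of Tnn in flox cells. Of the dim olfactory and vomeronasal genes, 15.2% were called higher in this comparison. In null Eα against null cells 14 of the 53 were called lower and 6 higher, or 26.4% and 11.3%, against 18.1% and 13.6% of all genes, with Ccn1 at -1.25 and Fbn2, a fibrillin, at -0.99.

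Of 31 receptors and co-receptors for these proteins, 21 were called higher and 5 lower in null cells, or 67.7% and 16.1% (median 0.76). Of all genes, 26.5% were called higher and 28.7% lower (median 0.06). Named by size were Cd44, the hyaluronan and osteopontin receptor (3.39), Itgb8, a TGF-β-activating integrin chain (3.01), Egfr, the EGF receptor, which EGF-like repeats of tenascin C can bind (2.38), and Itgb1, the common β1 integrin chain (1.94). The flox means of Cd44 (4.28) and Itgb8 (4.93) lay below the dim reference, so their differences are lower bounds. In null Eα against null cells 16 of the 31 were called lower and 2 higher. These were 51.6% and 6.45%, against 18.1% and 13.6% of all genes. Among those lower were Itga3, a laminin receptor chain (-2.05), and Itgb8 (-1.79).

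Of 25 genes of processing and turnover, 15 were called higher and 4 lower in null cells, or 60% and 16% (median 0.45). Of all genes, 26.5% were called higher and 28.7% lower (median 0.06). Named by size were Mmp3, a metalloprotease that cleaves many matrix proteins (4.55 ± 0.60, a lower bound with a dim flox mean of 3.87), the protease inhibitor Timp2 (2.91), the membrane metalloprotease Mmp14 (2.61) and Bmp1, a protease that matures procollagen (2.59). In null Eα against null cells 14 were called lower and 1 higher. These were 56% and 4%, against 18.1% and 13.6% of all genes. Among those lower were the crosslinking enzyme Tgm2 (-1.57) and Bmp1 (-1.43). Of 41 transcription factors and TGF-β pathway genes listed as possible upstream regulators, 24 were called higher and 6 lower in null cells. These were 58.5% and 14.6% (median 0.43), against 26.5% and 28.7% of all genes. Their action on the measured members was not tested. Prrx1, a mesenchymal homeobox factor known to activate Tnc, rose by 3.98, a lower bound with a dim flox mean of 4.91, Fos and Jun, subunits of AP-1, by 3.15 and 2.33, and Ets1 by 2.31. In null Eα against null cells 23 of these regulators were called lower and 4 higher. These were 56.1% and 9.76%, against 18.1% and 13.6% of all genes. Mycn (1.89) and Klf4 (1.77), the latter also counted among the stem cell markers, rose.

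**Figure D4:**
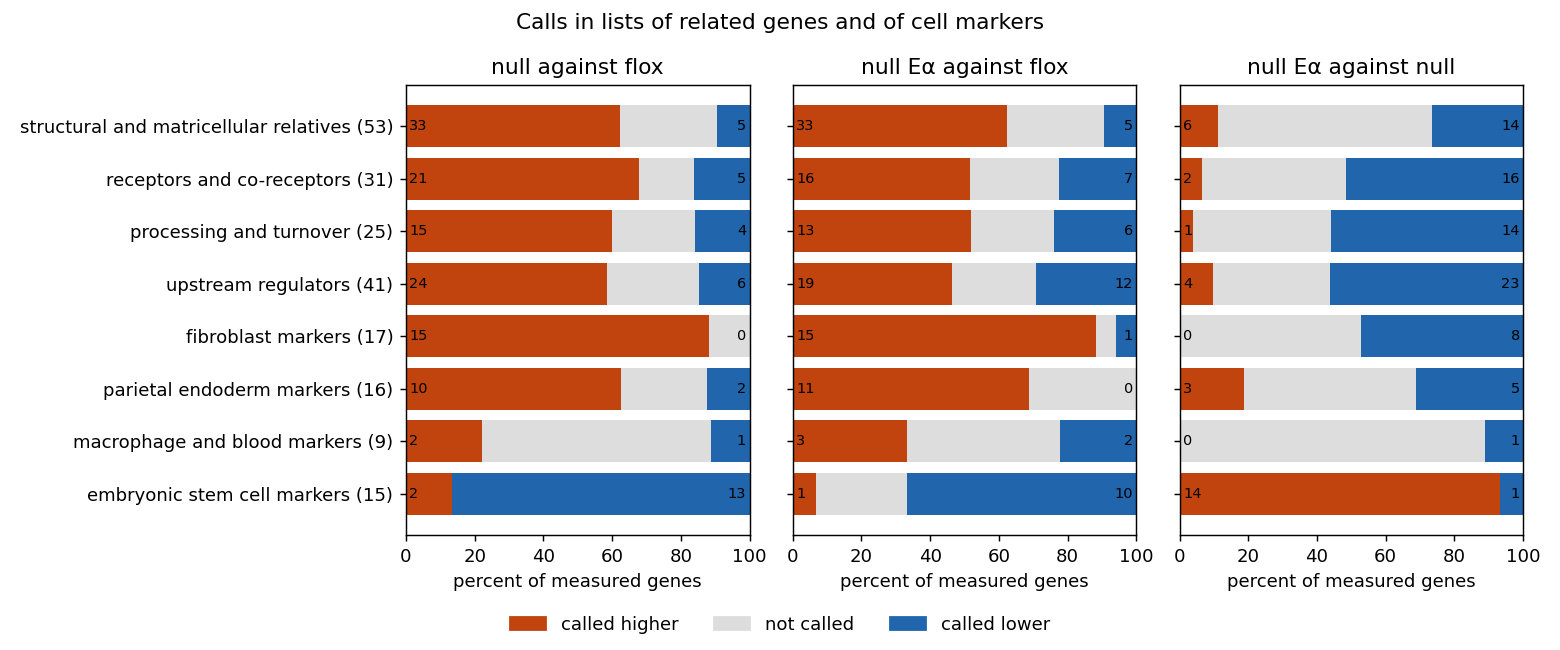
Share of the measured genes of each list (horizontal axis, percent) called higher, not called or called lower, in 3 panels, 1 per comparison; the number of measured genes stands in brackets and the counts called stand in the bars. In null against flox cells, 33 of 53 matrix relatives, 21 of 31 receptors and 15 of 17 fibroblast markers were called higher, and 13 of 15 stem cell markers lower. Of all genes, 26.5% were called higher and 28.7% lower there.

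For each of the 8 genes, the genes nearest in pattern were taken from 18609 others, by the root mean square difference over the 9 arrays after each gene's own mean was subtracted. The same pair, Anxa1, an annexin, and Acta2, smooth muscle actin, came nearest to Tnc (0.33 and 0.53 log2 units) and to Thbs1 (0.29 and 0.33). Tmem176b and Gask1b came nearest to Thbs2 (0.22 and 0.40), Ccdc80 and Ankrd1 to Postn (0.36 and 0.37), and the collagen gene Col12a1 and Prrx1 to Dcn (0.50 and 0.59). These 5 members had an SD of 1.51 to 3.07 over the arrays. The distances are the smallest of 18609, so their small size is given by the choice. Whether the genes share more than a step between groups was not tested. Nearest to Sparc were Nprl3, also on chromosome 11, and Abhd6, on chromosome 14 (0.05 and 0.08, SD 0.66). Jmy and Ppp1r11 came nearest to Fn1 (0.05 and 0.06, SD 0.27), and Adra2c and Tex46 to Vtn (both 0.05, SD 0.27).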

How the data were processed

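Biotin-labelled whole-transcript target from total RNA of 9 cultures was hybridised to 1 array each. The authors deposited log2 values per feature, made with RMA per the submitters' processing notes, which give no version. Whether the arrays were normalized together is not stated, and their quartiles differ. The table's 35556 features were named through GEO's platform annotation: 21789 had 1 symbol and 1621 several, which were left out. The highest-mean feature per symbol gave 19938 genes.

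Groups were compared in R 4.3.3 with the functions lmFit and eBayes of limma 3.58.1, from 1 fit of all 9 arrays with 6 residual and 4.04 prior degrees of freedom, with Benjamini-Hochberg adjustment over all genes in each comparison and no filter on low values. Calls need an adjusted p under 0.05. A value after ± is limma's standard error. The code was tested on simulated data. The number of arrays limits the precision. Members and lists were chosen with earlier results of these data known. From lists, the 4 largest called differences in null against flox and the 2 largest in null Eα against null were named, plus marker genes and, after their values were seen, the other measured thrombospondin, tenascin and SPARC family genes. Promoters came from RefSeq. Figures used matplotlib 3.10.9.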

Additional observations from a re-analysis of the deposited data

How the results depend on the processing

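Under 19 alternative settings (2 scalings, a filter on dim genes, priors, weights, features, chromosomes, a block and each array left out), Thbs2, Postn and Dcn kept their direction and their call in both comparisons with flox, as did Sparc in null Eα cells. Tnc, Thbs1 and Fn1, not tested there, kept their direction, and counts over the 8 genes against flox include them as a description. Sparc in null against flox was never called and ran from -0.22 to 0.02. In null Eα against null, Thbs1, Postn and Sparc kept their call. With each chromosome centred, Vtn was called higher there (0.51, against 0.08 without centring), so 1 of the 8 genes was called higher and not 0. That call came from the shift of brighter chromosome 11 genes against flox (-0.62 in null Eα, -0.19 in null), whereas Vtn was dim on all 9 arrays. The median difference of all genes moved to 0.21, 0.33 and 0.16 in the 3 comparisons. Leaving out 1 array each gave 3 (without null Eα replicate 2) to 6 genes called lower there, 5 to 6 called higher in null against flox and 6 in null Eα against flox.

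All genes called in null against flox numbered 11004, 7288 without dim genes and 17661 with all features tested. In null Eα against flox they numbered 12694, 7169 and 19938. Of the calls in null against flox 48% were higher, and 37.3% without dim genes and 66% with chromosomes centred. For null Eα against flox the shares were 50.4%, 26.8% and 73.7%, with 40.1% after centring each array on its own median, and for null Eα against null 43%, with 72.9% with chromosomes centred. Correlations of same-numbered deviations ran from -0.03 to 0.26, not all above 0.1, and the labels name no shared batch, so the arrays were treated as sharing only a number. In 12 of 18 checks the own number was highest, a hint of pairing from the data and not from the design. With the number as a replicate block, 6 genes were called higher and 1 lower in null against flox, 6 and 2 in null Eα against flox, and 0 and 5 in null Eα against null.

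After quantile normalization, with counts before it in brackets, the receptors called lower were 3 (5) in null and 4 (7) in null Eα against flox. Against flox in null Eα cells, called lower were 4 (12) upstream regulators, 0 (1) fibroblast markers and 1 (0) parietal endoderm markers. Macrophage and blood markers called higher were 1 (2) in null against flox. Stem cell markers then gave 3 (1) higher and 5 (10) lower in null Eα against flox and 0 (1) lower in null Eα against null. Of all genes, 4943 (6399) were then called higher and 5262 (6295) lower in null Eα against flox. With each array centred on its median, 1 stem cell marker was called higher in null against flox, where 2 were without centring. Without null replicate 2, a choice made after seeing the data, 2 processing genes were called higher in null Eα against null. Leaving out this array changed no other list count by over 1.5 times. Signal over background was not measured, so low flox levels of Tnc, Postn and Dcn limit their folds.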
